A study of Mus musculus with 18 samples.

Results

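The comparison described here set papillomas from control mice against mock-treated skin of control mice, with 3 RNA-seq libraries on each side, which are 6 of the 18 columns of the series and 6 of its 17 distinct libraries. The 6 libraries were taken by their group label. The mice carried floxed Zfp36 alleles (fl/fl) on a C57BL/6 background and no Cre, so that tristetraprolin, the RNA-binding protein that Zfp36 encodes, stayed intact in both groups. They were the littermate controls of mice in which a Cre under the human keratin 14 promoter deleted Zfp36 in the epidermis (ΔEP in the paper, DK14 in the column names). Young adult mice of the tumor group had been shaved and given the mutagen DMBA and then repeated TPA, a phorbol ester that promotes tumors, on the back skin. Whole skin is named as the source in the labels, whereas the methods describe live cells sorted as EpCAM+ and CD45-, CD140a- and CD31-, that is, epithelial cells without leukocytes, fibroblasts and endothelium. What the mock treatment held, how many animals or tumors went into a library, and the hair cycle stage of the mock skin, are not given in the sources used here, so p-values measure the spread between these libraries only.

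Hair follicles pass through growth (anagen), regression (catagen) and rest (telogen). In anagen, matrix cells at the follicle base divide under Wnt, hedgehog and BMP signals and give rise to the hair shaft and the inner root sheath, each with its own keratins, and the cell types sorted from skin shift with the stage. Papillomas of the DMBA/TPA protocol typically carry an activated Ras gene, and ligands of the EGF receptor, made by the epidermis itself, act upstream of the same MAP kinase pathway.

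Mock replicate 1 and tumor replicate 1 stood apart. Mock replicate 1 held genes of growing follicles at levels far above mock replicates 2 and 3. Trichohyalin (Tchh), a structural protein of the inner root sheath, stood at 613, 9.01 and 10.4 CPM (counts scaled to a common library total) in mock replicates 1, 2 and 3, and the inner root sheath keratin Krt71 at 569.7, 0.563 and 0.383 CPM. Of 15394 genes tested, mock replicate 1 exceeded the mean of the other 2 by more than 2-fold in 1997 (13%) and fell short of it by as much in 2513 (16.3%). Tumor replicate 1 was the shallowest of the 6, with 2808550 counts against up to 9617985 elsewhere and 19219 genes with a count against at least 23984, and 10.9% of its counts were ribosomal RNA against at most 8.38% in the others. It lay more than 2-fold above both other tumors in 1029 genes and more than 2-fold below both in 2601.

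The gate could be checked on its own markers. Epcam, the sorting antigen, stood at 90.3, 111 and 115 CPM in mock skin and 166, 440.4 and 341 CPM in the tumors. Ptprc, which encodes CD45, was at most 1.42 CPM in every library. All 13 leukocyte markers together summed to 16.6, 31.0 and 23.1 CPM in mock skin and 41.2, 24.7 and 37.8 CPM in tumors. Pecam1 (CD31) ran from 9.58 to 36.6 CPM, and 8 endothelial markers summed to 19.4 to 42.4 CPM. The 8 fibroblast markers were not at background. They summed to 798 to 2040 CPM in mock skin and 235 to 733 CPM in tumors. Col1a1, Col1a2, Col3a1 and Dcn, which encode collagens and decorin, were 4 of them called lower in tumors, against 1.88% of all genes. The fitted change was positive for 1 of the 8, and 1 was called higher without mock replicate 1. Pdgfra, which encodes the gated antigen CD140a, stood at 3.64, 23.6 and 11.6 CPM in mock skin and 0.474, 2.60 and 2.26 CPM in tumors. The 8 melanocyte markers summed to 102 to 410 CPM in mock skin and 18.0 to 43.6 CPM in tumors, with Pmel and Mitf called lower (1.88% of all genes). The 4 Schwann cell markers summed to 12.9 to 109 CPM in mock skin and 19.1 to 38.4 CPM in tumors. Of them 1 was called lower, where 1.88% of all genes were. Muscle and Merkel cell markers stayed below 5 CPM in sum. In bulk libraries fewer cells of a type and less RNA per cell cannot be told apart, and what part these other cells had in the lower calls was not tested.

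With all 3 mock libraries in the fit, 632 of 15394 genes (4.11%) passed edgeR's quasi-likelihood test (adjusted p below 0.05 with a difference over 2-fold), 342 of them higher in tumors (2.22%) and 290 lower (1.88%). A further rule, free of any model, asked in which genes every tumor library lay at least 2-fold beyond every mock library on log2 CPM. It held for 387 genes higher in tumors (2.51%) and 429 lower (2.79%), and 285 and 240 of these were also called. These genes are referred to as clear of every mock library. A second set was clear of 2 mock libraries but not of the third. When the third was mock replicate 1, the set held 467 genes higher in tumors (3.03%) and 878 lower (5.7%). When it was replicate 2, it held 47 and 68 genes, and for replicate 3 it held 38 and 40.

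**Figure D1:**
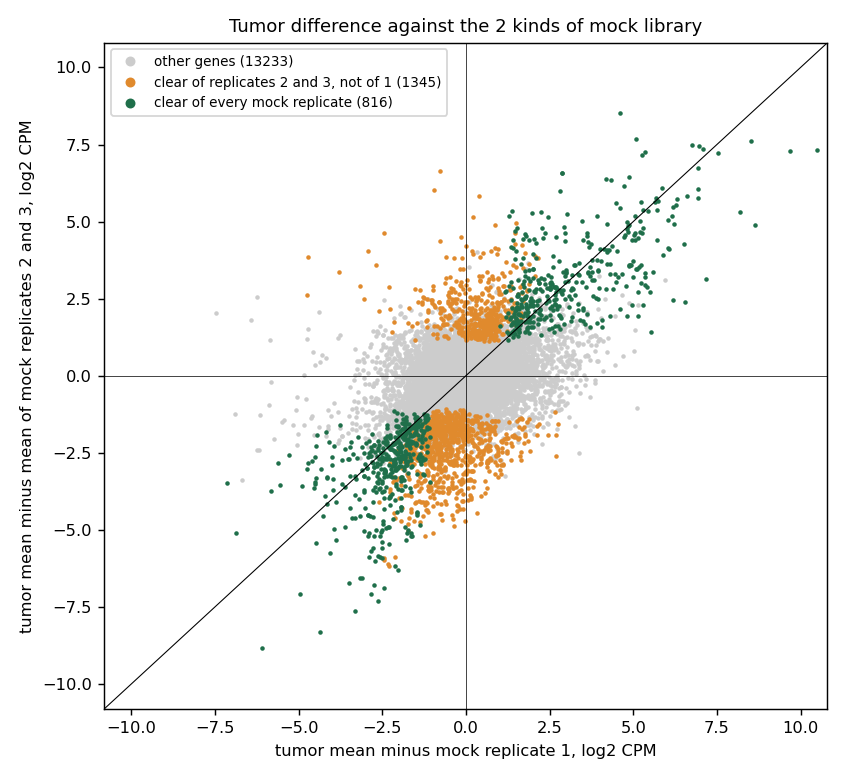
Each point is 1 of the 15394 genes, with the mean of the 3 tumors minus mock replicate 1 on the x axis and minus the mean of mock replicates 2 and 3 on the y axis (log2 CPM, line of equal difference in black). The 816 genes clear of every mock library (387 higher and 429 lower) lie away from 0 on both axes while the 467 higher and 878 lower genes clear of replicates 2 and 3 only lie away from 0 on the y axis and in part close to 0 on the x axis.

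When mock replicate 1 was left out, 1477 genes were called higher (9.45% of 15636 tested) and 1800 lower (11.5%). Of the 632 calls, 631 were tested there, and all 631 were called in the same direction. The calls of that fit included 448 of the 467 and 795 of the 878 genes that were not clear of mock replicate 1, of which 18 and 42 were also called with all libraries. In 199 of the 467, mock replicate 1 reached at least the lowest tumor, and in 75 it lay above all 3 tumors. The same held for 382 of the 878 genes lower in tumors, and in 125 mock replicate 1 lay below all 3. Mock skin of the DK14 group, which lacks Zfp36 in keratinocytes, offered libraries that took no part in choosing these genes. There too replicate 1 differed from replicate 2, in the same direction and by more than 2-fold in 272 of the 467 genes, against 13.9% of all genes tested, and in 604 of the 878, against 18.5%. The opposite difference was seen in 0 and 3 of them. The third column of that group repeats the second and was counted once.

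Many, but not all, genes of the growing follicle were high in mock replicate 1, which was known when the comparison was chosen. Mock replicate 1 exceeded the mean of the other 2 by more than 2-fold in 6 of 7 tested inner root sheath genes and 10 of 16 matrix genes. Over all genes the share was 13%. It fell short of that mean by as much in 1 gene of each list, against 16.3% of all genes. Gata3, a transcription factor of the inner root sheath that the epidermis also expresses, was the exception in the first, at 167, 593 and 626 CPM in mock skin and 149, 120.0 and 147 CPM in tumors. Of 7 genes of the inner root sheath and its companion layer that were tested, 0 were called, and of 3 tested hair shaft keratins 0 were called, against 4.11% of all genes. In so few genes 0 calls lie near that share. Genes on which mock replicate 1 stands apart also have a large error, so these counts are no result about hair genes. The other 11 hair shaft keratins on the list were not tested, because too few libraries held enough counts or for want of a row. Some of them were high in mock replicate 1 almost alone, such as Krt83 at 22.6, 0 and 0.0958 CPM in mock skin. The sheath genes Krt27 and Padi3 were left untested in the same way, at 85.2 and 65.3 CPM in mock replicate 1. Krt35, a shaft keratin, stood at 134, 0.563 and 0.192 CPM in mock skin and 0.474, 33.5 and 0.647 CPM in tumors. The inner root sheath keratin Krt25 stood at 447, 0.938 and 0.479 CPM in mock skin and 7.58, 13.3 and 1.62 CPM in tumors. Mock replicate 1 was thus the highest of the 6 libraries in both genes, and the tumors lay above mock replicates 2 and 3 for Krt25. The fitted log2 fold change of Krt25 was -4.27 (SE 2.19, adjusted p = 0.259) with 3 mock libraries and 3.50 (adjusted p = 0.0386) without replicate 1.

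Transcription factors of the hair matrix, the dividing cells at the follicle base, behaved in 2 ways. Dlx3, a homeobox gene of hair and epidermal differentiation, stood at 212, 1.31 and 1.34 CPM in mock skin and 3.32, 5.05 and 2.26 CPM in tumors. Msx2 and Hoxc13, homeobox genes of the same compartment, stood at 113, 3.19 and 3.93 CPM and 66.6, 4.32 and 3.35 CPM in mock skin, and at 2.37, 2.02 and 0.323 CPM and 0, 3.47 and 2.26 CPM in tumors. Lef1, the partner of beta-catenin in the matrix, stood at 197, 5.63 and 2.30 CPM in mock skin and 0, 7.08 and 1.62 CPM in tumors. Mock replicate 1 was far above the other 5 libraries for these 4 genes, and the tumors lay above mock replicates 2 and 3 for Dlx3, below them for Msx2 and across or near them for Lef1 and Hoxc13. The log2 fold changes of -4.65 to -3.51 did not pass the test (adjusted p = 0.115 to 0.194), and without mock replicate 1 they were -1.16 to 1.46 (adjusted p = 0.117 to 0.908). Dlx2, by contrast, was at 214, 0.188 and 0.287 CPM in mock skin and 5.21, 6.21 and 14.6 CPM in tumors, so that its log2 fold change turned from -3.04 to 5.01 (adjusted p = 0.00706) when mock replicate 1 was left out.

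Foxn1 and Wnt10b were the 2 of 16 tested matrix genes that were called lower, against 1.88% of all genes. Both were clear of every mock library. Foxn1, the transcription factor whose loss makes nude mice, stood at 17.4, 14.4 and 14.0 CPM in mock skin and 3.32, 2.60 and 1.94 CPM in tumors (log2 fold change -2.55, SE 0.38, adjusted p = 0.0199). Wnt10b, a Wnt ligand of the follicle, stood at 14.4, 10.3 and 9.29 CPM in mock skin and 1.42, 2.17 and 0.970 CPM in tumors (log2 fold change -2.82, SE 0.47, adjusted p = 0.0253). In both genes the 3 mock libraries lay close together, unlike those for Tchh, Krt71 and Dlx3.

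**Figure D2:**
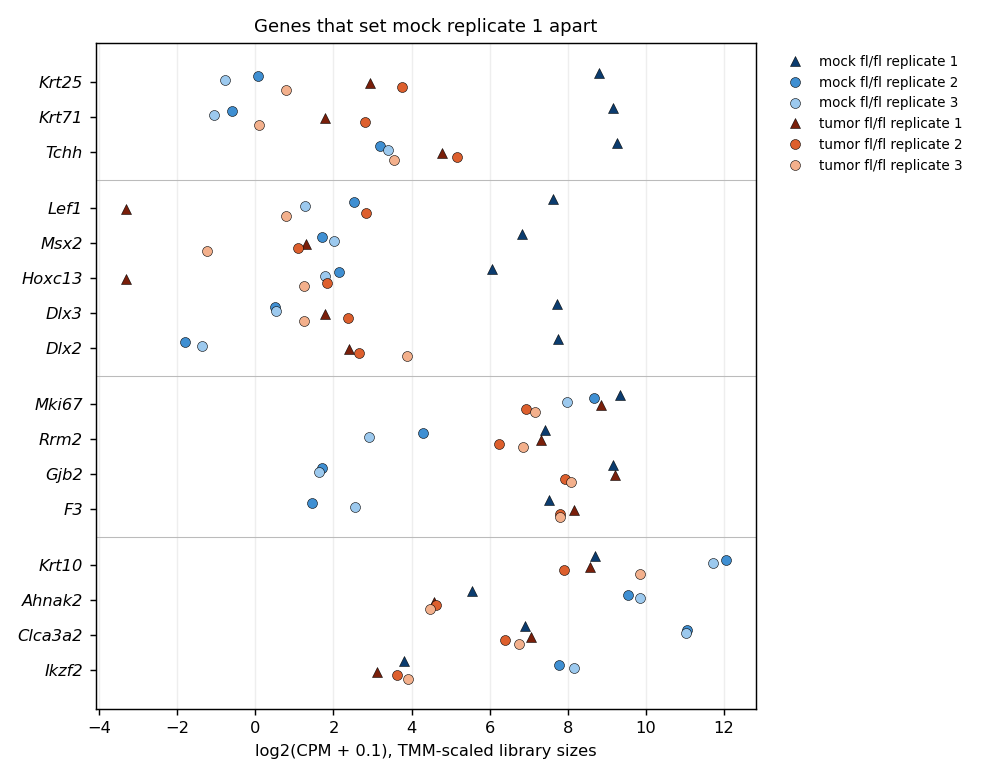
Expression of 16 genes in each library, as log2(CPM + 0.1), with mock libraries in blue, tumors in red and replicate 1 of each group as a triangle. Mock replicate 1 is the highest library for the inner root sheath and matrix genes in the upper 2 blocks, and lies nearer to the tumors than to the other mock libraries for Gjb2, F3, Krt10, Ahnak2, Clca3a2 and Ikzf2.

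Outside the follicle lists, the genes with the smallest p among those not clear of mock replicate 1 showed what a comparison with replicates 2 and 3 alone would have added. They were ranked in the fit without mock replicate 1, so their p-values there are those that ranked them. F3, which encodes tissue factor, the starter of blood coagulation, stood at 184, 2.63 and 5.75 CPM in mock skin and 285, 222 and 223 CPM in tumors. Gjb2 (connexin 26), a gap junction protein, stood at 575, 3.19 and 2.97 CPM in mock skin and 590.1, 243 and 272 CPM in tumors. Fabp5, the epidermal fatty acid binding protein, stood at 429.5, 46.5 and 33.1 CPM in mock skin and 1558, 852 and 1373 CPM in tumors. For F3 and Gjb2 mock replicate 1 was near or inside the range of the tumors, whereas for Fabp5 it lay between the other mock libraries and the tumors. Spire1, Fblim1, Lrp8, Dse and Neto2 completed the 8 leading genes of this kind, with log2 fold changes of 1.62 to 2.38 against 3 mock libraries (adjusted p = 0.191 to 0.347) and 3.35 to 5.29 without replicate 1.

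Among genes lower in tumors, the same rule led to Ahnak2, Clca3a1, Syne1, Capns2, Clca3a2, Ikzf2, Exph5 and Tns1. Clca3a2, a member of the calcium-activated chloride channel regulator family, stood at 120.0, 2115 and 2093 CPM in mock skin and 132, 83.2 and 108 CPM in tumors. Ikzf2, the zinc finger protein Helios, stood at 14.0, 217 and 286 CPM in mock skin and 8.53, 12.3 and 14.9 CPM in tumors. In each of these 2 genes mock replicate 1 was within or at the edge of the tumor range. Ahnak2, a large scaffold protein, stood at 46.6, 740.0 and 918 CPM in mock skin and 23.7, 24.7 and 22.0 CPM in tumors, and with Tns1 it was 1 of 2 of these 8 genes that were called even with replicate 1 in the fit (log2 fold change -4.60, adjusted p = 0.0459). Clca3a1 and Clca3a2 are close paralogs, and reads may have been split between them.

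Most listed cell cycle genes were higher in mock replicate 1 than in the other mock libraries. All 31 listed proliferation genes were tested and 0 were called in either direction, where 4.11% of all genes were. In 31 genes 0 calls lie near that share. Genes on which mock replicate 1 stands apart also have a large error, so this count is no result about proliferation. In 30 of 31 mock replicate 1 lay more than 2-fold above the mean of the other mock libraries, against 13% of all genes. Mki67, the proliferation antigen Ki-67, stood at 649, 405 and 253 CPM in mock skin and 465, 122 and 144 CPM in tumors (log2 fold change -0.84, SE 0.58, adjusted p = 0.395). Rrm2, a subunit of ribonucleotide reductase, stood at 171, 19.3 and 7.47 CPM in mock skin and 160.2, 75.7 and 116 CPM in tumors. The tumors thus overlapped the mock libraries for Mki67 and all lay above mock replicates 2 and 3 for Rrm2. Without mock replicate 1, 6 of the 31 were called higher and 0 lower, where 9.45% and 11.5% of all genes were, with Rrm2 at 3.16 (adjusted p = 0.00834).

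Of the ligands of the EGF family, 5 rose and were clear of every mock library. Of 9 tested, 5 were called higher, against 2.22% of all genes, and 0 lower, with a median log2 fold change of 2.19 against -0.05 over all genes. Ereg (epiregulin, ENSMUSG00000029377 on chromosome 5, 91074622 to 91093646, plus strand of GRCm38) had the smallest p among called genes that were higher and clear of every mock library. It stood at 1.54, 1.31 and 1.15 CPM in mock replicates 1, 2 and 3 and 311, 228 and 229.7 CPM in tumor replicates 1, 2 and 3 (mean 1.34 ± 0.198 against 256 ± 47.6, SD, n = 3). The 3 mock libraries were alike and the groups were far apart, with a log2 fold change of 7.56 (SE 0.34, adjusted p = 4.90e-04). Nrg1 (neuregulin 1), which binds ERBB3 and ERBB4 rather than the EGF receptor itself, rose from 14.9, 14.1 and 12.4 CPM to 341, 534 and 431 CPM (log2 fold change 4.98, SE 0.31, adjusted p = 0.00243). Areg (amphiregulin) rose from 13.9, 9.76 and 9.87 CPM to 297, 135 and 149 CPM (log2 fold change 4.11, SE 0.41, adjusted p = 0.00671).

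Tgfa and Hbegf, which encode TGF-alpha and heparin-binding EGF, were also called, at log2 fold changes of 3.46 (SE 0.52) and 2.19 (SE 0.33), both with an adjusted p of 0.0199. Mock replicate 1 was the lowest of the 6 libraries for both, at 6.39 CPM for Tgfa and 53.8 CPM for Hbegf. The 4 ligands that missed the threshold were Epgn (1.77, adjusted p = 0.0581), Nrg2 (2.00, adjusted p = 0.0540), Btc (2.09, adjusted p = 0.0822) and Nrg4 (0.69, adjusted p = 0.336). Nrg2 was nonetheless clear of every mock library, at 1.87, 4.32 and 4.79 CPM in mock skin and 11.8, 14.9 and 17.1 CPM in tumors.

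Genes of the receptors were not called. Egfr stood at 349, 354 and 377 CPM in mock skin and 203, 306 and 274 CPM in tumors (log2 fold change -0.46, SE 0.25, adjusted p = 0.282), and Erbb2 at 72.1, 97.9 and 153 CPM and 44.6, 42.6 and 31.7 CPM (adjusted p = 0.0577). Of the 7 tested receptors and inhibitors 1 was called, beside 4.11% of all genes. It was Lrig3, a transmembrane protein of a family known to restrain receptor tyrosine kinases. Lrig3 fell from 99.2, 99.1 and 110.3 CPM to 14.2, 18.0 and 15.9 CPM (log2 fold change -2.67, SE 0.25, adjusted p = 0.00671), with the 3 mock libraries close together. Errfi1, an intracellular inhibitor of the receptor, stood at 280.1, 120.5 and 151 CPM in mock skin and 322, 303 and 371 CPM in tumors, where mock replicate 1 lay near the tumors.

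Genes driven by the MAP kinase pathway moved in both directions. Of 15 tested, 4 were called higher and 1 lower, against 2.22% and 1.88% of all genes. Dusp4, a phosphatase that inactivates ERK, rose from 11.02, 3.00 and 4.98 CPM to 37.4, 131 and 135 CPM (log2 fold change 3.98, SE 0.67, adjusted p = 0.0259). Fosl1, a subunit of the transcription factor AP-1, rose from 85.2, 69.2 and 117 CPM to 368, 318 and 343 CPM (adjusted p = 0.0184). The other 2 called higher were Spry2 (1.45, adjusted p = 0.0247) and Dusp5 (1.36, adjusted p = 0.0459). Spry1, a Sprouty inhibitor like Spry2, went the other way and fell from 61.2, 90.6 and 112 CPM to 9.005, 11.7 and 13.6 CPM (log2 fold change -2.93, SE 0.34, adjusted p = 0.00954). Dusp6, the best known ERK phosphatase of the list, was not called, at 382, 44.5 and 60.9 CPM in mock skin and 639, 521 and 368 CPM in tumors, with mock replicate 1 inside the tumor range. Without that library its log2 fold change was 3.28 (adjusted p = 0.00210). Of 17 immediate early genes, which include Fos, Jun and Egr1, 0 were called higher and 1 lower, where 2.22% and 1.88% of all genes were. The gene called lower was Ier2 (log2 fold change -1.45, adjusted p = 0.0275).

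**Figure D3:**
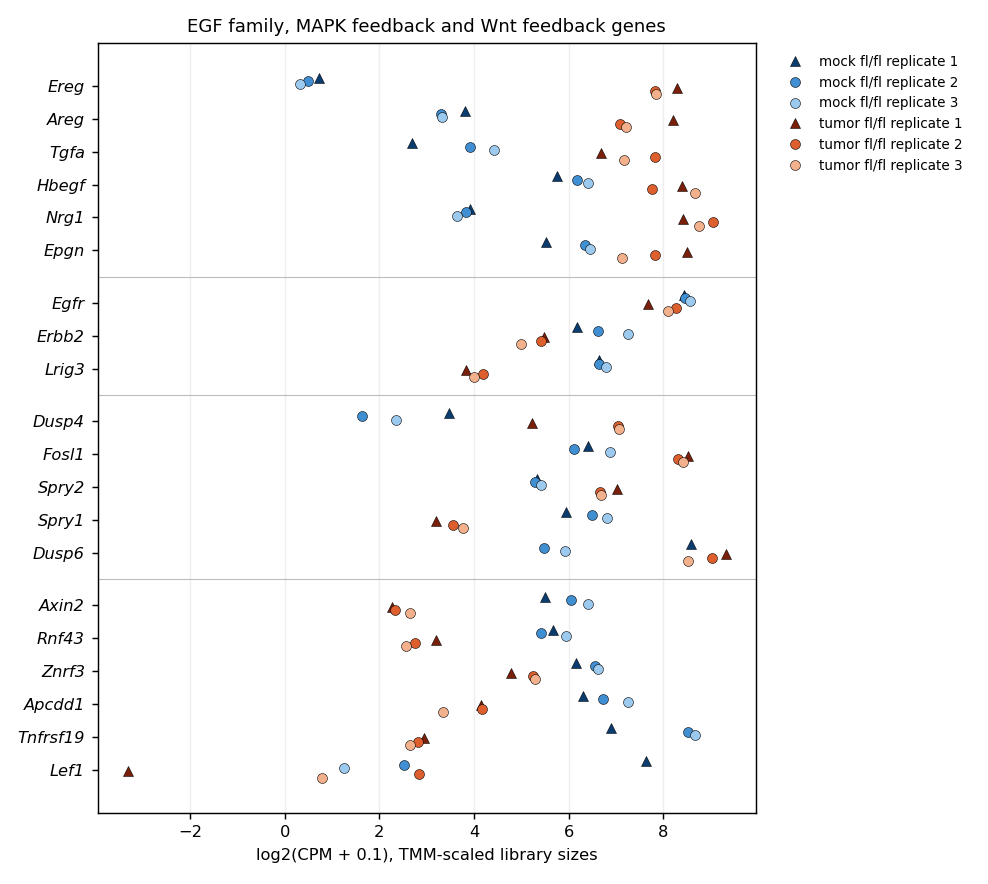
Expression of 20 signaling genes in each library, as log2(CPM + 0.1), with mock libraries in blue, tumors in red and replicate 1 of each group as a triangle; the blocks hold EGF family ligands, receptors with Lrig3, MAP kinase feedback genes and Wnt feedback genes. Mock and tumor libraries separate without overlap for Ereg, Nrg1, Lrig3, Axin2 and Rnf43, whereas mock replicate 1 lies inside the tumor range for Dusp6 and alone at the top for Lef1.

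Some Wnt targets and feedback genes fell in tumors. Wnt signaling through beta-catenin and TCF/LEF factors induces its own inhibitors. Of 11 tested Wnt targets and feedback genes 5 were called lower and 0 higher, against 1.88% and 2.22% of all genes. The other 6, Lef1, Wif1, Nkd2, Lgr5, Tcf7 and Ccnd1, were not called. Among them were Lgr5 (-1.20, adjusted p = 0.269), Tcf7 (-0.31, adjusted p = 0.695) and Ccnd1, the only positive one (0.68, adjusted p = 0.615). Axin2, the classic feedback target, fell from 45.2, 66.6 and 85.1 CPM to 4.74, 4.91 and 6.15 CPM (log2 fold change -3.63, SE 0.35, adjusted p = 0.00671). Tnfrsf19 (TROY), a Wnt target and receptor of the TNF receptor family, fell from 119, 365 and 409 CPM to 7.58, 6.93 and 6.15 CPM (log2 fold change -5.43, SE 0.54, adjusted p = 0.00671). The ubiquitin ligases Rnf43 and Znrf3, which remove Wnt receptors from the cell surface, fell by 2.87 and 1.33 on the log2 scale (adjusted p = 0.00865 and 0.0425). Apcdd1, a secreted inhibitor, fell from 78.8, 106 and 152 CPM to 17.5, 17.8 and 10.03 CPM (adjusted p = 0.0140).

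For Axin2, Rnf43, Tnfrsf19 and Apcdd1 even the lowest mock library lay more than 2-fold above the highest tumor, and Znrf3 missed that margin against mock replicate 1 only. Mock replicate 1, in which Lef1 was highest, had the lowest level of the 3 mock libraries for Axin2, Znrf3, Tnfrsf19 and Apcdd1. These 4 genes and Lef1 thus ordered the mock libraries differently. Prickle1, of the planar polarity branch of Wnt signaling, was named for its p alone and fell from 26.0, 24.6 and 30.6 CPM to 1.90, 2.45 and 2.91 CPM (adjusted p = 0.00671).

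In the hedgehog pathway, which drives growth of the matrix, 0 of 8 tested genes were called, where 4.11% of all genes were. Its receptor and target Ptch1 stood at 202, 44.3 and 46.0 CPM in mock skin and 10.9, 20.6 and 13.9 CPM in tumors and was clear of every mock library, but missed the threshold (log2 fold change -2.67, SE 0.66, adjusted p = 0.0635). Without mock replicate 1 it passed (-1.53, adjusted p = 0.0171). Gli1, the target transcription factor, stood at 43.9, 5.44 and 4.02 CPM in mock skin and 0.474, 2.89 and 0.647 CPM in tumors. Of 11 tested Notch pathway genes 1 was called, beside 4.11% of all genes. It was Lfng, a sugar transferase that tunes Notch receptors, which fell from 18.5, 16.1 and 21.1 CPM to 6.16, 3.90 and 2.26 CPM (adjusted p = 0.0382).

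Of 17 tested genes of the follicle stem cells and bulge, 1 was called higher and 1 lower, a share near the 2.22% and 1.88% of all genes. Sox9, a transcription factor of outer root sheath and stem cells, rose from 69.9, 62.9 and 74.2 CPM to 320.4, 428 and 665 CPM (log2 fold change 2.77, SE 0.33, adjusted p = 0.0106), and the mock libraries differed little from each other. Krt15, a keratin of bulge and basal cells, fell from 263, 1470.2 and 1636 CPM to 178, 83.0 and 122 CPM (log2 fold change -3.14, SE 0.68, adjusted p = 0.0492), but mock replicate 1 at 263 CPM was within 2-fold of tumor replicate 1. Lhx2 stood at 54.1, 16.7 and 9.58 CPM in mock skin and 0.474, 3.18 and 0 CPM in tumors, clear of every mock library without passing the test (adjusted p = 0.0678).

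Of 16 tested genes of the BMP and TGF-beta family, 3 were called higher (2.22% of all genes) and 1 lower (1.88%). Inhba, which encodes the subunit of activin A, rose from 6.06, 2.63 and 1.34 CPM to 72.0, 96.9 and 51.4 CPM (log2 fold change 4.45, SE 0.60, adjusted p = 0.0150). Fst (follistatin), which binds and blocks activin, rose from 39.6, 52.0 and 55.2 CPM to 621.8, 383 and 362 CPM (adjusted p = 0.00671), so that the ligand and its antagonist rose in the same tumors. Tgfb3 rose by 2.29 on the log2 scale (adjusted p = 0.0243). Bmp4 fell from 37.5, 55.2 and 56.6 CPM to 7.11, 2.60 and 2.26 CPM (log2 fold change -3.72, SE 0.50, adjusted p = 0.0150). The BMP target Id2 depended on the reference, at 290.3, 23.5 and 18.6 CPM in mock skin and 31.8, 71.3 and 62.8 CPM in tumors, with a log2 fold change of -0.998 against 3 mock libraries and 1.42 without replicate 1 (adjusted p = 0.560 and 0.0389).

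Few genes of basal and differentiating epidermis were called. None of 12 basal keratinocyte genes was called (0 higher and 0 lower), where 2.22% and 1.88% of all genes were. In so few genes 0 calls lie near that share. Mock replicate 1 lay more than 2-fold below the mean of the other 2 in 11 of the 12, against 16.3% of all genes. Such genes have a large error, so the count is no result about basal genes. Krt5 and Krt14, the basal keratin pair, stood at 1480.0, 6659 and 5944 CPM and 600.2, 4759 and 4377 CPM in mock skin, and at 11449, 2475 and 2770.3 CPM and 14824, 3659.5 and 4109.9 CPM in tumors. Mock replicate 1 was the lowest and tumor replicate 1 the highest library for both, and the sign for Krt5 turned with either library left out. Krt10, the first keratin of differentiating cells, stood at 418, 4217 and 3360.0 CPM in mock skin and 381, 239 and 919 CPM in tumors with mock replicate 1 inside the tumor range (log2 fold change -2.38, adjusted p = 0.131, and -2.87, adjusted p = 0.0125, without that library). Of 12 early differentiation genes 1 was called higher and 1 lower, beside 2.22% and 1.88% of all genes. They were Grhl3, a transcription factor of barrier formation, and Dsg1a, a desmosomal cadherin. Dsg1a was not clear of mock replicate 1, at 275 CPM there and 140 CPM in tumor replicate 3. Its call was lost in 5 of the fits with 1 library left out. Mock replicate 1 lay more than 2-fold below the other 2 in 9 of these 12 genes. Of 14 tested late differentiation and barrier genes 1 was called higher, Asprv1 (2.25, adjusted p = 0.0149), and 0 lower. Krt77, a suprabasal keratin of the epidermis and sweat ducts, had the largest fall of the 12 leading genes lower in tumors, from 288, 1849 and 1930.5 CPM to 2.37, 3.90 and 6.15 CPM (log2 fold change -8.33, SE 0.91, adjusted p = 0.00811). All 3 mock libraries were far above all 3 tumors for Krt77, although mock replicate 1 lay well below the other 2.

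Keratins and envelope proteins of stressed and healing epidermis rose in all tumors. Of 9 tested, 8 were called higher, against 2.22% of all genes. The ninth, Krt16, was clear of every mock library, as were 2.51% of all genes, but missed the threshold (adjusted p = 0.0686). Krt6a rose from 17.9, 35.3 and 26.3 CPM to 4478, 1265 and 959 CPM (log2 fold change 6.40, SE 0.75, adjusted p = 0.0101). Krt17 rose from 466, 366 and 394 CPM to 1352, 2007 and 1432 CPM (adjusted p = 0.0184). Krt6a and Krt6b are near-identical copies, and so are Sprr2a1 and Sprr2a2, so the split of reads within each pair is uncertain. Sprr1b, a small proline-rich cornified envelope protein, rose from 0.441, 1.13 and 0.766 CPM to 165, 26.1 and 39.5 CPM. Sprr2h was at 0 counts in all 3 mock libraries and at 8.53, 3.61 and 4.85 CPM in the tumors, which is at least 14.4-fold higher when set against 3 counts per mock library. Tumor replicate 1 had the highest level of Krt6a, Krt6b, Sprr1b and Sprr2h.

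Alarmins and protease inhibitors of inflamed epidermis rose likewise, with 6 of 7 tested called higher and 0 lower, where 2.22% and 1.88% of all genes were. S100a8, a chain of calprotectin, rose from 1.76, 0.188 and 0.287 CPM to 115, 43.8 and 122 CPM (log2 fold change 6.86, SE 0.84, adjusted p = 0.0113). Slpi, a secreted inhibitor of neutrophil elastase, rose from 4.41, 0.375 and 0.575 CPM to 321, 96.6 and 135 CPM (adjusted p = 0.0200). Lcn2 (lipocalin 2), which binds bacterial siderophores, rose from 0.220, 0.563 and 0.192 CPM to 5.21, 308 and 609 CPM (adjusted p = 0.0281). Tumors 2 and 3 held far more Lcn2 than tumor 1, the reverse of the order for Krt6a. S100a8 and S100a9 are also made by neutrophils. Ptprc, the leukocyte marker, was at 1.42, 0 and 0.323 CPM in the same 3 tumors. The 13 leukocyte markers summed to 41.2, 24.7 and 37.8 CPM there. Which cells made these transcripts was not tested.

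Of 17 tested cytokines and chemokines, 5 rose and 0 fell (2.22% and 1.88% of all genes). Il24, of the IL-10 family, rose from 0, 0.563 and 0.0958 CPM to 105, 146 and 111 CPM (log2 fold change 9.31, SE 0.75, adjusted p = 0.00483), with 4 counts in all of the mock libraries together. Its neighbor on chromosome 1, Il19, rose from 0.110, 0.188 and 0 CPM to 31.8, 38.7 and 8.41 CPM, where 2 mock counts give a ratio of 370 with a 95% counting interval of 102 to 3065. Cxcl1, a neutrophil chemokine, rose from 38.4, 12.6 and 9.20 CPM to 225, 263 and 267 CPM (adjusted p = 0.0216). Csf3, the granulocyte growth factor G-CSF, rose from 0.772, 0 and 0.0958 CPM to 38.9, 18.9 and 43.7 CPM (adjusted p = 0.0144). The fifth was Cxcl2 (5.82, adjusted p = 0.0277). Mock replicate 1 held the most Cxcl1, Cxcl2 and Csf3 of the 3 mock libraries and still lay well below every tumor.

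Matrix proteases showed some of the largest folds. Of 16 tested genes of matrix degradation and invasion, 5 were called higher and 0 lower, beside 2.22% and 1.88% of all genes. Mmp13 (collagenase 3) rose from 0.331, 1.13 and 0.671 CPM to 153, 73.9 and 45.9 CPM (log2 fold change 7.04, SE 0.67, adjusted p = 0.00671). Mmp10 (stromelysin 2) rose from 0.110, 0.751 and 0.383 CPM to 49.3, 21.2 and 28.5 CPM (adjusted p = 0.00736). Mmp9 (gelatinase B) and Itga5, the fibronectin receptor chain, rose by 5.84 and 3.26 on the log2 scale (adjusted p = 0.0184 and 0.00981). The mock libraries lay within 1.13 CPM of 0 for Mmp9, Mmp10 and Mmp13.

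**Figure D4:**
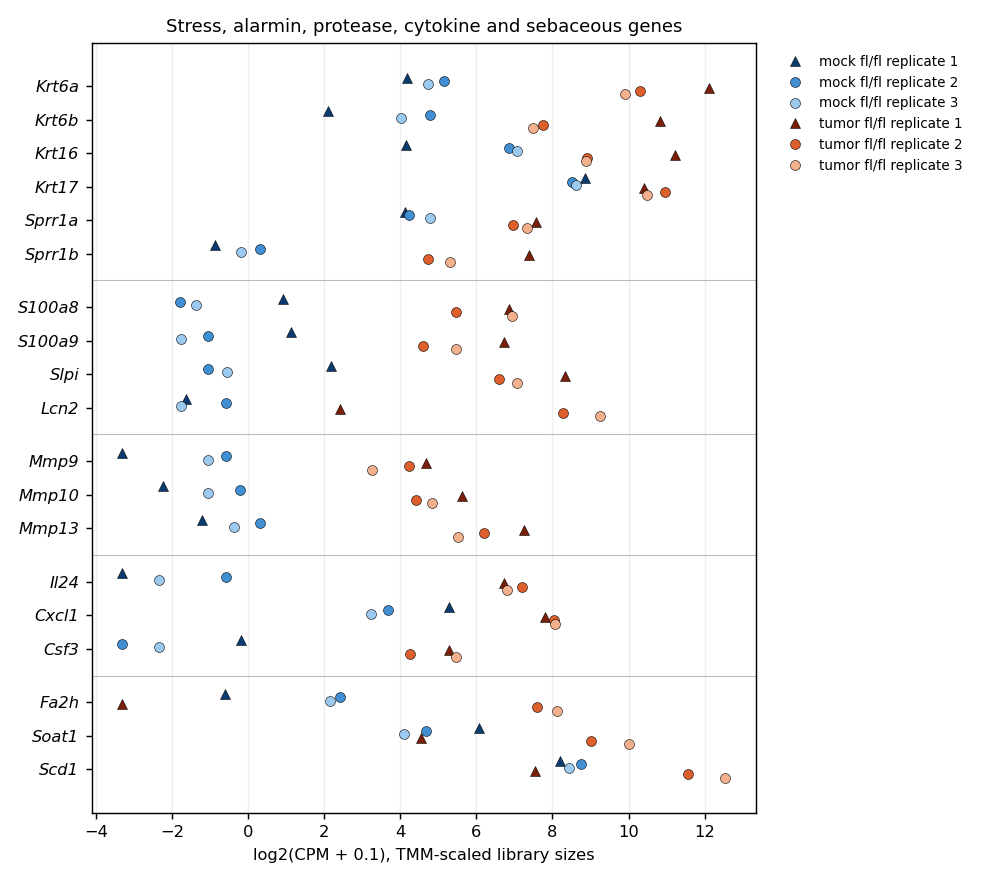
Expression of 19 genes in each library, as log2(CPM + 0.1), with mock libraries in blue, tumors in red and replicate 1 of each group as a triangle; the blocks hold stress keratins with small proline-rich proteins, alarmins, proteases, cytokines and sebaceous lipid genes. All tumors lie above all mock libraries in the upper 4 blocks, while for Fa2h, Soat1 and Scd1 in the last block tumor replicate 1 lies within or below the range of the mock libraries.

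Antioxidant genes that the transcription factor NRF2 is known to induce rose in 5 of 16 tested, with 0 lower (2.22% and 1.88% of all genes). Hmox1, which degrades heme, rose from 5.73, 2.81 and 2.87 CPM to 57.8, 74.8 and 92.2 CPM (log2 fold change 4.28, SE 0.41, adjusted p = 0.00671). Srxn1 (sulfiredoxin) rose from 3.86, 6.57 and 4.41 CPM to 53.6, 187 and 244 CPM (adjusted p = 0.0113). Gpx2, a glutathione peroxidase, rose from 0.220, 0.188 and 0.0958 CPM to 173, 7.94 and 22.3 CPM (adjusted p = 0.0275), most of it in tumor replicate 1. The other 2 were Nqo1 (3.28, adjusted p = 0.0467) and Akr1b8 (3.21, adjusted p = 0.0411).

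Of 21 genes of glycolysis and hypoxia, 6 rose and 0 fell, against 2.22% and 1.88% of all genes. Hk2, the hexokinase that starts glycolysis, rose from 75.4, 38.7 and 39.2 CPM to 355, 396 and 319.6 CPM (log2 fold change 2.80, SE 0.35, adjusted p = 0.0115). Ndrg1, Pgk1, Vegfa, Ero1l and Car9 were called at log2 fold changes of 2.45, 2.11, 1.75, 1.72 and 4.11 (adjusted p = 0.0129, 0.0331, 0.0341, 0.0184 and 0.0382). The lactate transporter Slc16a1 (MCT1), named for its p, rose from 13.6, 24.6 and 19.5 CPM to 445, 511 and 515 CPM (log2 fold change 4.67, SE 0.33, adjusted p = 0.00319).

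Lists of lipid synthesis depended on the libraries. Of 17 cholesterol synthesis genes 1 was called with all libraries (2.22% of all genes), Msmo1, a sterol demethylase subunit, from 92.8, 43.3 and 44.5 CPM to 217, 274 and 320.3 CPM (adjusted p = 0.0275), and 12 were called higher without mock replicate 1, where 9.45% of all genes were. None of 13 sebaceous gland genes was called (0 higher and 0 lower), where 2.22% and 1.88% of all genes were. Fa2h, a fatty acid hydroxylase of sebocytes, stood at 0.551, 5.25 and 4.31 CPM in mock skin and 0, 193 and 278 CPM in tumors, with no count in 1 tumor and high in the other 2.

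Clock genes were lower in part. Of 16 tested, 3 were called lower (1.88% of all genes) and 0 higher (2.22%). Cry2, a repressor of the clock, fell from 20.1, 39.4 and 58.0 CPM to 4.27, 3.32 and 3.23 CPM (log2 fold change -3.45, SE 0.47, adjusted p = 0.0165). Per1 fell from 59.6, 118 and 162 CPM to 22.7, 21.4 and 22.6 CPM (adjusted p = 0.0254). Npas2, a paralog of Clock, fell from 3.64, 40.7 and 53.8 CPM to 0.474, 1.01 and 1.62 CPM (adjusted p = 0.0459), with mock replicate 1 an order of magnitude below the other mock libraries. Time of day at collection is not given in the sources used here.

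Cell cycle inhibitors and p53 targets gave 2 higher and 1 lower of 12 tested, where 2.22% and 1.88% of all genes were called. Mdm2, the ubiquitin ligase that p53 induces, rose from 91.0, 68.7 and 76.2 CPM to 227, 211 and 289.5 CPM (adjusted p = 0.0226), Plk2 rose by 1.28 on the log2 scale (adjusted p = 0.0319), and Cdkn1b (p27), an inhibitor of cyclin-dependent kinases, fell from 122, 86.9 and 107 CPM to 30.3, 37.7 and 38.5 CPM (adjusted p = 0.0253). In the prostaglandin pathway 1 of 8 was called, beside 4.11% of all genes. It was the receptor gene Ptger4 (EP4), which fell from 102, 129 and 164 CPM to 15.6, 18.3 and 14.9 CPM (log2 fold change -3.01, SE 0.29, adjusted p = 0.00671). Ptgs2 (COX-2), the inducible enzyme of the pathway, stood at 15.2, 138 and 115 CPM in mock skin and 1678, 167 and 89.0 CPM in tumors, 1 tumor apart from the other 2 (adjusted p = 0.188).

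Of the 8 genes of the TTP family and of mRNA decay, 0 were called, where 4.11% of all genes were. Zfp36 stood at 151, 684 and 616 CPM in mock skin and 218, 167 and 239 CPM in tumors (log2 fold change -1.22, SE 0.52, adjusted p = 0.191). It was lower in tumors against mock replicates 2 and 3 (-1.63, adjusted p = 0.00557), and mock replicate 1 lay just below the tumors.

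Other genes with the smallest p among those called and clear of every mock library extended the lists. Higher in tumors, Clcf1, a cytokine of the IL-6 family, rose from 1.87, 0.563 and 2.78 CPM to 83.4, 83.7 and 79.6 CPM (log2 fold change 5.49, SE 0.51, adjusted p = 0.00671), and Crabp2, which carries retinoic acid to its receptor, from 4.30, 7.69 and 5.65 CPM to 92.4, 73.4 and 93.2 CPM. Tspan12, a tetraspanin that acts with the Norrin receptor, had 3 counts in mock skin, for a ratio of 176 with a 95% counting interval of 59.6 to 860. Tpm2, Tinagl1, Smim3 and Aqp9 rose by 3.25 to 5.60 on the log2 scale (adjusted p = 0.00421 to 0.00671). In these 7 genes the lowest tumor was several times the highest mock library.

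Lower in tumors, Paqr5, a membrane progestin receptor, fell from 47.0, 34.1 and 41.4 CPM to 1.90, 1.59 and 3.56 CPM (log2 fold change -4.14, SE 0.41, adjusted p = 0.00671). Il11ra1, the receptor chain for IL-11, fell from 23.0, 35.3 and 37.6 CPM to 2.84, 1.88 and 2.91 CPM (adjusted p = 0.00765). Ttc9 and Elmod1 fell by 3.98 and 4.14 on the log2 scale. Tbc1d16, a GTPase activator for Rab proteins, had 2 counts in the tumors against 412 in mock skin, for a ratio of 0.00994 with a 95% counting interval of 0.0012 to 0.0362. The 3 mock libraries were within 2-fold of each other for Paqr5, Ttc9, Elmod1 and Il11ra1.

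**Figure D5:**
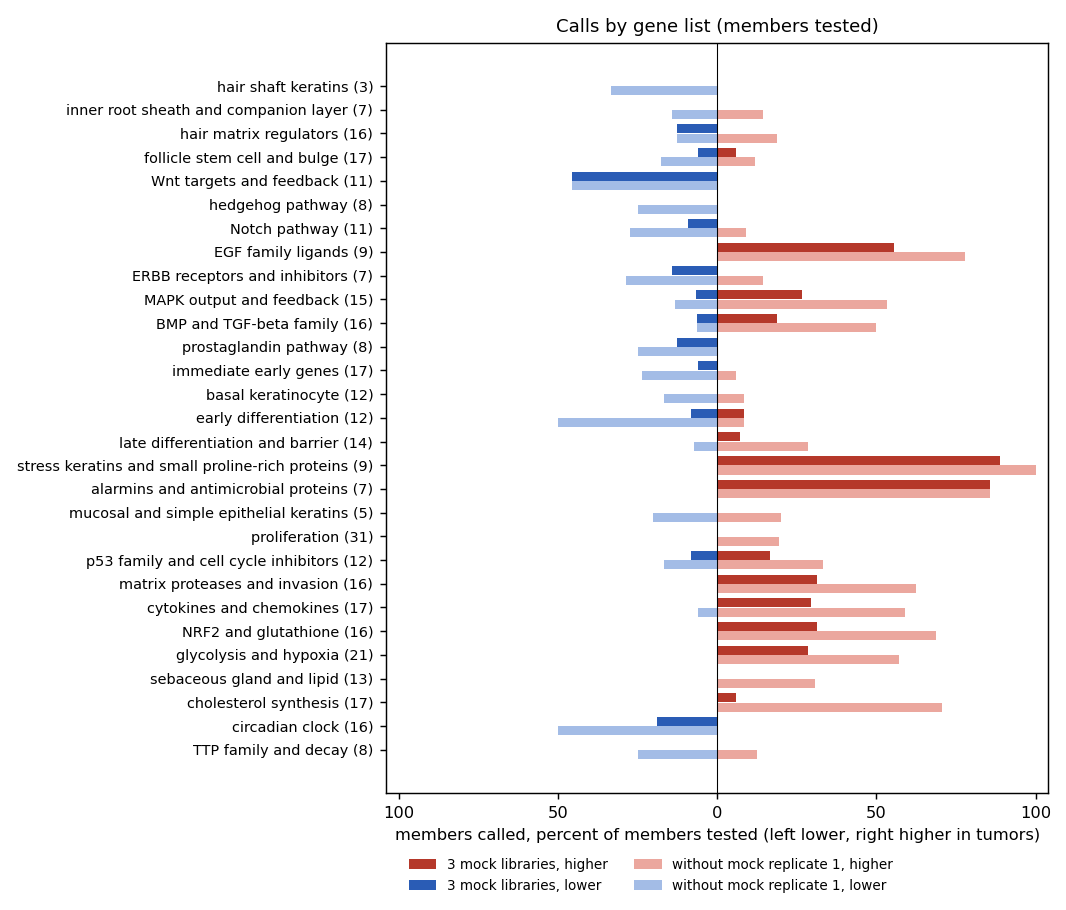
For each gene list (members tested in brackets), the percent of tested members called lower (left) or higher (right) in tumors, with all 3 mock libraries in dark and without mock replicate 1 in pale colors. Stress keratins with 8 of 9 and alarmins with 6 of 7 lead the calls with all libraries, and cholesterol synthesis goes from 1 of 17 to 12 of 17 without mock replicate 1.

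Promoters were searched for 4 motifs, since Mmp13 and other genes that rose are known targets of AP-1. RefSeq promoter windows (build GRCm38.p6, 250 bases before to 50 after a start) were matched by symbol to 9898 of 15372 tested symbols, and a gene counted when any of its windows held the motif on either strand. The AP-1 motif TGAGTCA, which reads as TGACTCA on the other strand, stood in 23 of 190 called genes that were higher and clear of every mock library (12.1%), against 465 of 9898 tested genes (4.7%). Among genes called lower and clear it stood in 10 of 162 (6.17%), and among genes higher but not clear of mock replicate 1 in 20 of 331 (6.04%). It was in 5.2% of all 32851 windows. The TCF/LEF motif CTTTGAT, which reads as ATCAAAG on the other strand, stood in 10 of 162 genes lower and clear (6.17%), 1 of 190 higher and clear (0.526%) and 306 of 9898 tested (3.09%). The ARE motif bound by NRF2, TGACNNNGC, which can overlap the AP-1 motif, stood in 14.2% of the genes higher and clear and 16.7% of those tested, and the E-box CACGTG of clock factors in 11.7% of the genes lower and clear and 11.8% of those tested. These shares are a description, and a match is not evidence of binding.

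Stretches of 29 bases around the motif are shown for Mmp13, Mmp10, Sprr1a, Srxn1 and Aqp9, which rose, and for Tnfrsf19, which fell, 5′ to 3′ on the strand of the gene, with the motif in capitals. The AP-1 match of Mmp13 starts 35 bases before the RefSeq start and lies at chr9:7272468-7272496, that of Mmp10 starts 63 bases before at chr9:7502268-7502296, and those of Sprr1a start 146 and 116 bases before at chr3:92486010-92486038 and chr3:92485980-92486008. The 2 matches of Srxn1 start 102 and 45 bases before at chr2:152105411-152105439 and chr2:152105468-152105496, that of Aqp9 starts 24 bases before at chr9:71162640-71162668, and the TCF/LEF match of Tnfrsf19 starts 202 bases before at chr14:61038172-61038200.
Mmp13, AP-1: ccccaaagtggTGACTCAtcactatcatg
Mmp10, AP-1: tagcacccatgTGAGTCAtgcttagtgac
Sprr1a, AP-1, far: ataactaaagcTGAGTCAgagggtgaact
Sprr1a, AP-1, near: ggggaggagggTGAGTCAtaggtgactgg
Srxn1, AP-1, far: ctcggagggccTGAGTCAccacgctgtgc
Srxn1, AP-1, near: caaattcacccTGAGTCAgcggccgggcg
Aqp9, AP-1: catttggtgacTGAGTCAtctgaaacaaa
Tnfrsf19, TCF/LEF: ctgaatgggggATCAAAGtgacaaactag

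Whether a gene was called often depended on which library was left out. Of the 632 calls, 27 (20 higher and 7 lower) were called whichever 1 of the 6 libraries was left out. They included Ereg, Nrg1, Il24, Clcf1, Hmox1, Mmp10, Mmp13, Slc16a1 and Crabp2 among those higher and Axin2, Tnfrsf19, Lrig3, Ptger4, Paqr5, Prickle1 and Ttc9 among those lower. Without mock replicate 2 or 3, which leaves mock replicate 1 with 1 other mock library, 30 and 48 genes were called. Without tumor replicate 1, 468 genes were called higher and 162 lower, and 368 of the 632 calls were among them. In each of these fits 0 of the 632 calls that were tested changed sign. The calls were chosen on all 6 libraries and each fit reuses all but 1 of them, so this is no separate check of direction.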

How the data were processed

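RNA-seq was performed by the authors with the Ovation SoLo kit, on sorted epidermal cells per the methods and whole skin per the labels. The deposited table holds raw counts per gene, made, per the labels' processing notes, with Trimmomatic 0.36, STAR 2.5.3, HTSeq 0.9.1 and DESeq2 on mm10, although the table is named for featureCounts. The annotation release, strand setting and duplicate removal are not given in the sources used here, so genes that overlap or lie antisense may share reads. Totals ran from 2808550 to 9617985 counts per library, and intervals and floors cover counting error only.

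From these counts, 6 columns were tested with edgeR 4.0.16 (filterByExpr, TMM, quasi-likelihood F test, R 4.3.3), two-sided, with Benjamini-Hochberg adjustment over all 15394 genes tested. Calls needed an adjusted p below 0.05 with a difference over 2-fold. Clear genes used log2 CPM with a prior count of 2. CPM used TMM-scaled library totals, on 1 scale for all 6 libraries. DESeq2 1.42.0, edgeR's exact test, other scalings, filters, margins and each library left out were alternatives. Named genes were the 12 called and clear genes with the smallest p in each direction, the 8 with the smallest p without mock replicate 1 among those not clear of it, without predicted genes, and Zfp36. Other genes come from the lists. Members and lists were chosen with earlier results of these data known. The scripts were tested on simulated data. There the quasi-likelihood test found 0% of planted 2-fold changes, 20% of 4-fold and 71% of 8-fold changes. A planted 2-fold change lies at the fold cutoff of a call, so the 0% reflects the cutoff as well as the test. A gene that was not called may therefore still differ. Coordinates are from GENCODE M21 (GRCm38), with 52489 of 52636 gene IDs matched. Figures used Python 3.11.15, matplotlib 3.10.9 and a pseudocount of 0.1 CPM. Values of some genes that met these rules are not reported here.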

Additional observations from a re-analysis of the deposited data

How the results depend on the processing

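The 632 calls (342 higher, 290 lower) became 2201 (1001 and 1200) with DESeq2, 2058 (875 and 1183) with edgeR's exact test, 2595 (1109 and 1486) with no filter on low counts and 3205 (1449 and 1756) in a single fit of all libraries. They were 630 with RLE scaling and 521 with a mean count of at least 10. The share of calls that were higher went from 54.1% to 42.5% with the exact test and 42.7% with no filter, to 74.3%, 87% and 85.5% without tumor replicate 1, 2 or 3, to 70% and 72.9% without mock replicate 2 or 3, and to 40.4%, 28.2% and 28.3% against mock library 1, 2 or 3 alone. Of the 632, the calls made again numbered 631 with DESeq2, 632 with the exact test, 623 with no filter, 627 in the single fit, 618 with RLE, 517 with the mean count filter and 193 with the replicate block, and 182 were called in all 7 of these. Among the 6 libraries, same-numbered tumor and mock libraries did not deviate together (r = 0.0576, -0.0908 and -0.0151). With 3 libraries per group these correlations cannot decide whether the numbers are pairs. The methods name no pairing, so the numbers were not taken as pairs, and the replicate block gave 244 calls (148 and 96). The correlations do not cover the DK14 mock libraries, where replicate 1 shared differences with mock replicate 1 of the control group. Not every library correlated best with its own number. With 1 library left out, calls ran from 30 to 3277, higher calls from 21 to 1477 and lower calls from 9 to 1800. Left out were mock replicate 1 (3277), 2 (30) or 3 (48), or tumor replicate 1 (630), 2 (77) or 3 (69). Against mock library 1, 2 or 3 alone, where the lone library was assumed to vary like the tumors, calls numbered 94 (38 and 56), 344 (97 and 247) and 671 (190 and 481). Without replicate 1 of both groups, chosen after seeing the data, there were 4973 (2234 and 2739). The cause was not tested.

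Genes clear of every mock library numbered 685 higher and 913 lower at a margin of 1.5-fold and 142 and 79 at 4-fold. With a tumor left out they ran from 419 to 712 and from 549 to 685. Genes not clear of replicate 1 numbered 1040 higher at 1.5-fold, 130 higher and 307 lower at 4-fold and 1521 lower with no filter, and with a tumor left out ran from 522 to 699 and from 948 to 1086. Those not clear of replicate 2 were 275, 28 and 211 under the same 3 settings and 140 to 463 with a tumor left out, and of replicate 3 they were 194, 31 and 207 and 98 to 173. The difference between DK14 mock replicates held for 454 genes at 4-fold against 876.

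Log2 fold changes that turned sign were, with the block, Krt5 -0.071, Krt25 0.067, Id2 0.36 and Dlx2 2.10. Against mock library 1 alone they were Rrm2 -0.53, Gjb2 -0.63, Krt10 0.31, Syne1 0.43 and Zfp36 0.48. Against library 2 alone they were Krt5 -0.30, Id2 1.19, Dlx3 1.40, Tchh 1.43, Krt71 2.69, Krt25 2.95 and Dlx2 5.28. Against library 3 alone they were Krt5 -0.14, Lef1 0.43, Tchh 1.22, Dlx3 1.37, Id2 1.53, Krt71 3.23, Krt25 3.89 and Dlx2 4.76. Without mock replicate 1 they were Krt5 -0.17, Tchh 1.38, Id2 1.42, Dlx3 1.46, Krt71 3.07, Krt25 3.50 and Dlx2 5.01. Without replicate 1 of both groups they were Krt14 -0.22, Krt5 -1.25, Lef1 0.33, Tchh 1.34, Dlx3 1.54, Id2 1.70 and Dlx2 5.22, and without tumor replicate 1 Krt5 was at -0.83. With 1 library left out, the lowest and highest values were -3.63 and 5.01 for Dlx2, -4.86 and 1.46 for Dlx3, -1.51 and 1.42 for Id2, -5.11 and 3.50 for Krt25, -6.58 and 3.07 for Krt71, -3.63 and 1.38 for Tchh and -0.83 and 0.64 for Krt5, and the lowest for Lef1 was -6.25 and the highest for Krt14 1.59. The cause was not tested.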

Other observations

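The 3 tumors differed among themselves in lipid and stem cell genes. Scd1, the fatty acid desaturase, stood at 185, 3035 and 5999.7 CPM in tumor replicates 1, 2 and 3 and 294, 434 and 348 CPM in the mock libraries. Soat1, which makes cholesterol esters, stood at 23.2, 519 and 1028 CPM in the tumors. Both were low in tumor replicate 1 and high in the other 2. The opposite order was seen for Gsta4, a glutathione transferase, at 755, 22.2 and 19.7 CPM, for Cdkn2a, which encodes the cell cycle inhibitors INK4A and ARF, at 32.2, 1.59 and 3.88 CPM, and for Cd34, a bulge stem cell marker in mouse skin, at 129.9, 5.34 and 7.12 CPM. These genes were chosen after their values were seen, and no test was made between single libraries.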
